A study of Mus musculus with 4 samples.

Results

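The naive and primed pluripotency network is described here as 41 mouse genes, taken by exact symbol from a table of 22369 genes. All 41 symbols were present. RNA sequencing was done on OG2MEF cultures, mouse embryonic fibroblasts that carry a green fluorescent reporter under Oct4 control, on day 9 of reprogramming. There were 2 libraries of the group labelled SOX17 WT and 2 of the group labelled SOX17-V118M, a missense form of the same factor that the series describes as able to induce pluripotency where the wild type does not. All cultures followed 1 protocol, in which pMX retroviruses for Sox2 and Klf4 were combined with OCT4, SOX17, SOX17-V118M or GFP, and the cells were moved afterwards to a medium for mouse embryonic stem cells that held LIF and vitamin C. Which viruses each library received is not stated sample by sample. No embryonic stem cell, untransduced fibroblast or GFP library was analysed, so levels are given against the other genes of the same libraries. Each library is RNA from a whole culture, in which fewer cells expressing a gene and less RNA per cell cannot be told apart.

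Mouse pluripotency has a naive and a primed form. Naive cells, as in the preimplantation epiblast and in embryonic stem cells grown with LIF, rest on OCT4, SOX2 and NANOG together with factors such as ESRRB, TFCP2L1, KLF proteins and PRDM14. Primed cells of the postimplantation epiblast keep OCT4, lose most naive factors and gain OTX2, POU3F1 and FGF5, with NODAL and FGF signalling in support. In reprogramming fibroblasts the epithelial change comes early, and the endogenous network, which includes Nanog, Esrrb, Dppa2, Dppa4 and Dppa5a, comes late.

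OCT4 binds DNA beside a SOX partner. The series describes a compressed composite element, CATTGTATGCAAAT, on which the V118M form pairs more strongly with OCT4; in the canonical element 1 base separates the SOX and OCT parts, CATTGTNATGCAAAT. Because the series names this element, the RefSeq promoter windows of the members (GRCm38.p6, 250 bases before to 50 bases from the start, 33 windows of 24 matched members) were searched on both strands. Neither full element occurred in any member window or in any of the 32851 windows of all genes. The core of the compressed element, TTGTATGCAAA, was in 0.0335% of all windows and in 0 member windows. The core of the canonical element, TTGTNATGCAAA, was in 0.0365% of all windows and in both windows of Nanog, which overlap and share the same site. The octamer ATGCAAAT, which lies within the full elements, was in 1.74% of all windows and, among members, in that of Zfp42. The SOX part alone, CATTGT, was in 12.6% of all windows and in those of Eras, Esrrb, Lin28a, Nanog and Pou5f1. The windows of Nanog and Zfp42 are shown because they hold the closest matches among the members, with the canonical core (Nanog) or the octamer (Zfp42) in capitals; in both the match is on the strand opposite to the gene. The Nanog window shown is chr6:122707239-122707538 on the plus strand, and the Zfp42 window is chr8:43306960-43307259 on the minus strand. A match is a description of letters only.
Nanog: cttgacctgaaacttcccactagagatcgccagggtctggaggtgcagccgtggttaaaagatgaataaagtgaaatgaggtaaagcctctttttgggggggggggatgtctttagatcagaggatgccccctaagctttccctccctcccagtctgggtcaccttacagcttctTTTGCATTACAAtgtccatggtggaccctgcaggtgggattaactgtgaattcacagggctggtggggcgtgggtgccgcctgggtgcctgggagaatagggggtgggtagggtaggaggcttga
Zfp42: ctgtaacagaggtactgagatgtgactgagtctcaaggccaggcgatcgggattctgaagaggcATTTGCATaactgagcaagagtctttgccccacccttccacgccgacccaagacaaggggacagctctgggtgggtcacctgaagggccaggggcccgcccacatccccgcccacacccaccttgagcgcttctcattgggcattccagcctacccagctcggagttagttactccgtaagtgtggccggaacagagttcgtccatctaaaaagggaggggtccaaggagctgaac

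The deposited values are normalized whole-number scores, and the 4 columns hold almost the same set of numbers, with totals between 12855482 and 12859613 and a median of 76 in each. Where values are set as one pair against another, the wild-type libraries come first and the V118M libraries second, each in the order of replicates 1 and 2. Sequencing depth is unknown, and at the top of the scale several genes share 1 value. One library, V118M replicate 2, stood apart: its Pearson correlation with the other libraries across 12661 genes was 0.954 to 0.964, and the others correlated with each other at 0.986 to 0.990. The cells are labelled as fibroblasts, and 14 of 14 fibroblast markers were above 0 in every library, beside 17209 of all 22369 genes. All 11 epithelial markers were above 0 in every library as well, among them Cdh1 (E-cadherin) at 3492 in both wild-type libraries against 3425 and 2822 in V118M. Their summed value was 76939 to 78074 in 3 libraries and 28482 in V118M replicate 2, where Dsp (desmoplakin) was at 12776 against 61186 in each of the others. The other 10 epithelial markers summed to 16548 and 16888 (wild type) and to 15753 and 15706 (V118M). By log2 fold change 9 of the 11 were lower in V118M and 2 were higher, where 9414 of 19547 genes were lower. In 4 of the 11, Cdh1, Krt8, Cldn6 and Ocln, both V118M values were below both wild-type values, beside 14.8% of all genes. In 0 of the 11 were both above, beside 13.2%, and none had an unadjusted limma p under 0.05. Fibroblast markers summed to 126244 to 131603 in 3 libraries and 102342 in V118M replicate 2. All of that drop lay in Col3a1, at 61186 in the 3 libraries and 29496 in V118M replicate 2. The other 13 fibroblast markers summed to 67154 and 65058 (wild type) and to 70417 and 72846 (V118M). In 2 of the 14, Postn and Pdgfra, the unadjusted limma p was under 0.05 (beside 4.01% of all genes), with Postn at 1263 and 1098 against 1889 and 1744 and Pdgfra at 302 and 248 against 460 and 352. Of 3 keratinocyte markers 2 were under that p and higher in V118M, beside 2.31% of all genes. Krt5 was at 246 and 199 against 664 and 731, and Krt14 at 4752 and 4358 against 5802 and 8053. In each of these both V118M libraries were above both wild-type libraries. The groups overlapped in the remaining marker, Trp63, at 105 and 107 against 112 and 92. Of 10 leukocyte markers 6 were above 0 in all libraries, with sums of 670 to 917. By log2 fold change 8 of the 10 were lower in V118M, where 9414 of 19547 genes were, and 2, Csf1r and Itgam, were higher. None had an unadjusted limma p under 0.05. Ptprc (CD45), which defines leukocytes, was at 165 and 58 against 30 and 0. It was the only one of the 10 in which the groups did not overlap, where 14.8% of all genes were separate and lower. The part of these differences in the values of the network was not tested.

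Most of the network stood low at day 9. Of the 41 members, 8 were listed at 0 in all 4 libraries, which is 19.5% of the list against 6.23% of all genes. They were the naive-state genes Dppa4, Tcl1, Nr5a2 and Eras, the morphogen gene Nodal, and the primed-state genes Otx2, Foxd3 and Sox3. A further 11 were above 0 somewhere but under 10 in every library, and 5 of these were above 0 in 1 library only. At the other end, 7 members were at 100 or more in all libraries, 17.1% of the list against 45.3% of all genes, and 11 more were at 10 or more in all without reaching that. Among all genes 61.3% were at 10 or more in every library, and among members 43.9%.

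**Figure D1:**
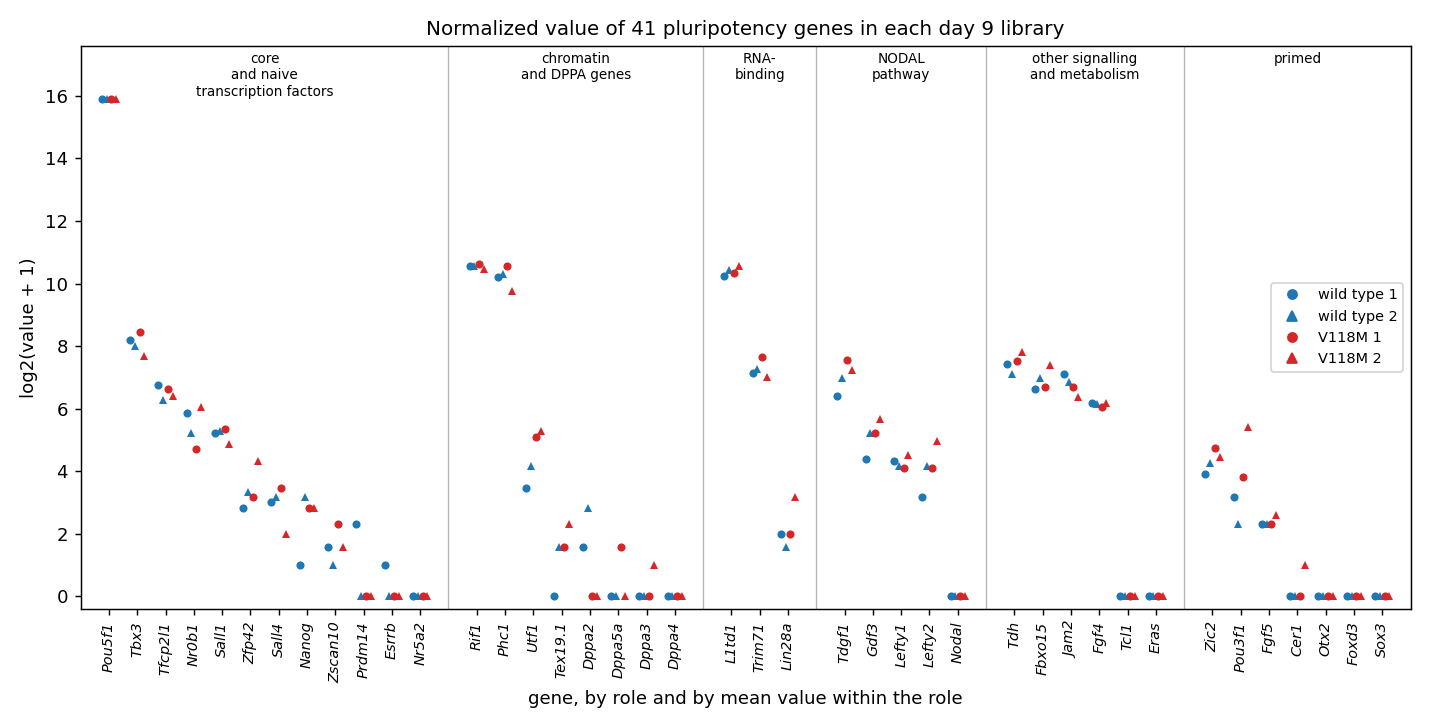
Normalized value of each of the 41 members in the 4 libraries, on a log2(value + 1) axis, with members grouped by role and ordered by mean value (blue, wild type; red, V118M; circles, replicate 1; triangles, replicate 2). Pou5f1 sits at 61186 in every library, Rif1, Phc1 and L1td1 lie between 870 and 1590, and 8 members lie on the zero line in all 4.

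Across the list, 28 of 41 members passed the filter on low values (at least 1 in at least 2 libraries) and were tested together with all other genes. None of them passed an adjusted p of 0.05, where 0% of 19547 genes did (limma, Benjamini-Hochberg), and the adjusted p of the tested members was 0.951 to 1. At an unadjusted p under 0.05, 2 members were higher in V118M, Utf1 and Pou3f1, which is 7.14% of those tested against 2.31% of all genes. In the other direction there was 1, Dppa2, or 3.57% against 1.70%, a gene that passed the filter only through the wild-type group where it is above 0. Both V118M values exceeded both wild-type values in 5 members (Utf1, Pou3f1, Tdgf1, Tdh and Zic2), 17.9% against 13.2% of all genes. Both were below in 2 (Jam2 and Dppa2), 7.14% against 14.8%. Counts this small lie near those of the table as a whole, and with 2 libraries a group an exact permutation test of a single gene cannot go below p = 0.333.

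The tested members were higher in V118M in 17 cases, lower in 10 and equal in 1. Among all tested genes 9624 were higher, 9414 lower and 509 equal. The median log2 fold change was 0.13 for the tested members against 0.00 for all tested genes. By role the medians were -0.01 for the core and naive factors, -0.01 for the chromatin and DPPA genes, 0.13 for the RNA-binding genes, 0.67 for the 4 NODAL-related genes, 0.10 for the signalling and metabolic genes and 0.53 for the 3 primed genes. These are descriptions of small groups, and each holds members whose libraries overlap.

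**Figure D2:**
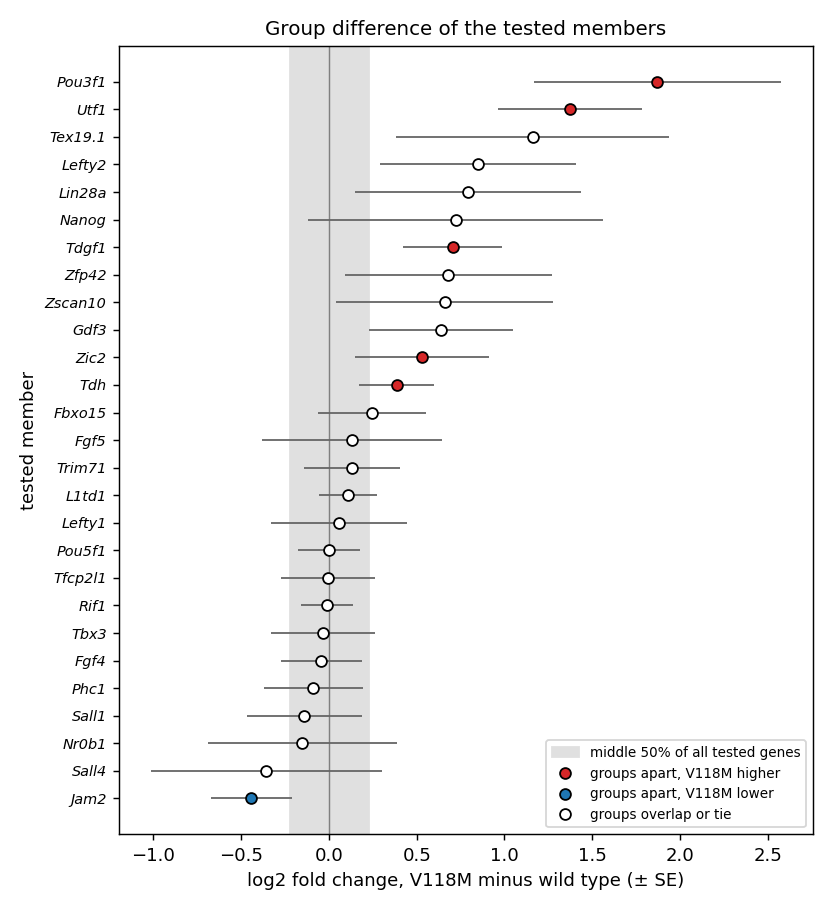
Log2 fold change of V118M over wild type for the 27 tested members with a value above 0 in both groups, with the limma standard error as a bar; filled points are members whose groups do not overlap (red higher, blue lower), and the grey band holds the middle 50% of all tested genes (-0.22 to 0.23). Pou3f1 at 1.87 and Utf1 at 1.37 are the highest, and Jam2 at -0.44 is the lowest.

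Pou5f1, Rif1, L1td1 and Phc1 were set apart from all other members by level. Pou5f1, the gene for OCT4 (ENSMUSG00000024406, chromosome 17, 35506018 to 35510772, plus strand), was at 61186 in all 4 libraries, the highest value in the table and one that 10 genes share in each library. A difference between groups could not appear at that value, and a gene-level table does not separate viral from endogenous OCT4 transcripts. The partner gene Sox2 was at 2 in both wild-type libraries against 4 and 2 in V118M. The protocol names a Sox2 virus for every combination and OCT4 as an alternative to SOX17, so Sox2 near 0 beside Pou5f1 at the table's maximum does not match it as written. Sox17 was at 3484 and 2880 against 3016 and 2396, and a value per gene does not separate the wild-type from the V118M form.

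L1td1, an RNA-binding protein derived from the LINE-1 ORF1 protein (chromosome 4, 98726734 to 98738480), was at 1198 and 1395 (wild type) and at 1290 and 1507 (V118M). The groups interleaved, and the log2 fold change of V118M over wild type was 0.11 with a standard error of 0.17. Phc1, a Polycomb subunit (chromosome 6, 122317731 to 122340561), was at 1182 and 1254 against 1506 and 870. The V118M libraries lay on either side of both wild-type libraries, with replicate 1 high and replicate 2 low, and the log2 fold change was -0.09 (standard error 0.28). Rif1, a telomere and replication-timing protein (chromosome 2, 52072832 to 52122383), was at 1507 and 1494 against 1590 and 1400, with a log2 fold change of -0.01 (standard error 0.15). Without V118M replicate 2 the log2 fold changes of Phc1 and Rif1 were 0.31 and 0.084, and without V118M replicate 1 they were -0.48 and -0.10.

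To set levels of different genes side by side, values were divided by the exonic length of the gene in kilobases. This takes the scores as not yet scaled by length, which no source used here states. The gene's length was used because the transcript that the table lists can be a fragment of it, as for L1td1 (705 of 3174 bases). On this per-kilobase level the order began with Pou5f1 at 27218, L1td1 at 424.5 ± 42.0, Phc1 at 227.1 ± 49.4 and Rif1 at 142.6 ± 7.41 (mean ± SD over the 4 libraries). The ranges of these neighbours did not overlap, and that of Rif1 (133.3 to 151.4) also lay above that of the next member, Tdh (52.8 to 84.9). From Tdh downwards the range of each member overlapped that of the next, so no order between neighbours can be read below Rif1. Among all genes, 93.1% had a lower per-kilobase level than L1td1, 65.9% had a lower one than Tdh and 29.1% a lower one than Nanog. The order depends on this division. By undivided mean value Rif1 (1497.75) followed Pou5f1, before L1td1 (1347.5) and Phc1 (1203), and the undivided ranges of Rif1, L1td1 and Phc1 overlapped.

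**Figure D3:**
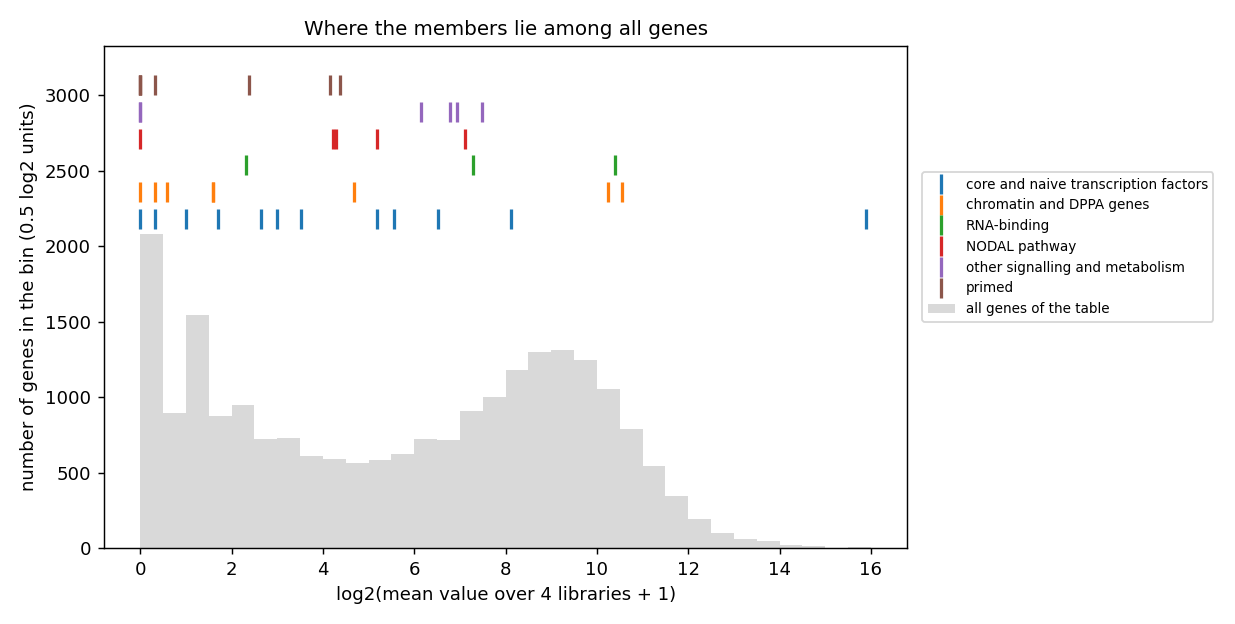
Number of genes of the whole table by mean value over the 4 libraries (grey bars, log2(mean + 1), bins of 0.5), with 1 vertical tick for each member above the bars, in a row and colour for each role. Only Pou5f1, Rif1, L1td1 and Phc1 have ticks beyond 10 on this axis, and the 8 members listed at 0 in every library share the left edge.

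The core and naive transcription factors comprised 12 members. Nanog, a core factor of the naive state (chromosome 6, 122707489 to 122714633), was at 1 and 8 in wild type against 6 in both V118M libraries, and the wild-type values enclosed those of V118M. Its log2 fold change was 0.72 (standard error 0.84), and it was -0.36 without wild-type replicate 1. Esrrb, an orphan nuclear receptor of the naive network, was at 1 in wild-type replicate 1 and listed at 0 in the other 3 libraries. Zfp42, the naive marker REX1, was at 6 and 9 against 8 and 19, with V118M replicate 2 alone above the rest (log2 fold change 0.68, standard error 0.59). Without that library its log2 fold change was 0.11, and without V118M replicate 1 it was 1.26.

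Prdm14, a naive-state repressor of FGF signalling, was at 4 in wild-type replicate 1 and listed at 0 elsewhere, and Nr5a2, which can stand in for OCT4 in reprogramming, was listed at 0 throughout. Zscan10 lay between 1 and 4, and Sall4, a zinc-finger partner of OCT4, between 3 and 10. The remaining members of this group had higher values. Tbx3, a T-box factor downstream of LIF, was at 292 and 256 against 352 and 203, and Tfcp2l1, a target of STAT3, was at 108 and 76 against 97 and 84. In both the wild-type values lay between or around those of V118M, and the groups overlapped. Nr0b1 (DAX1), a nuclear receptor without a DNA-binding domain, was at 57 and 36 against 25 and 66. The V118M libraries held both its lowest and its highest value, and its log2 fold change of -0.15 (standard error 0.54) was 0.53 without V118M replicate 1 and -0.83 without replicate 2. Sall1 was at 36 and 38 against 40 and 28 (log2 fold change -0.14, standard error 0.33). Tbx3 and Tfcp2l1 had log2 fold changes of -0.03 and -0.01, and in this group no member had separated groups. The log2 fold change of Tbx3 was 0.06 without wild-type replicate 1 and 0.36 without V118M replicate 2, and that of Sall1 was 0.11 without the latter.

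Utf1 was the DPPA and chromatin-group member with the largest positive difference. Utf1, a chromatin-bound factor of pluripotent cells (chromosome 7, 139943789 to 139945112, plus strand), was at 10 and 17 (wild type) and at 33 and 38 (V118M). Both V118M libraries exceeded both wild-type libraries, at means of 13.5 ± 4.95 and 35.5 ± 3.54 (SD, n = 2 each). V118M was higher by 1.37 on the log2 scale (standard error 0.41), and by 1.02 to 1.73 when single libraries were left out. It did not pass over all genes tested (limma adjusted p = 0.951). Its unadjusted p stayed under 0.05 without wild-type replicate 2 and not without any of the other 3 libraries.

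Dppa2, whose protein works with DPPA4 to keep bivalent promoters open, was at 2 and 6 in wild type but listed at 0 in both V118M libraries. It entered the test only through its wild-type values, no fold is given, and it did not pass over all genes (limma adjusted p = 0.951). Its neighbour and partner Dppa4 on chromosome 16 was listed at 0 in all libraries. Dppa3 (STELLA), an oocyte and naive-state protein, was at 1 in V118M replicate 2 and listed at 0 elsewhere. Dppa5a, an RNA-binding protein of embryonic stem cells, was at 2 in V118M replicate 1 and listed at 0 elsewhere. Tex19.1, a germline and placental gene, was at 0 and 2 against 2 and 4.

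A block of chromosome 6 holds 4 members side by side, and their values were far apart. Phc1, Gdf3 (122605403 to 122610087), Dppa3 (122626410 to 122630272) and Nanog span the interval from 122317731 to 122714633. Phc1 was at 870 to 1506, Gdf3 at 20 to 50, Dppa3 at 0 to 1 and Nanog at 1 to 8. Position in this block did not go with a common value.

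Of the RNA-binding members, Lin28a, which blocks let-7 maturation and is used as a reprogramming factor, was at 3 and 2 against 3 and 8. Its paralog Lin28b had higher values, 236 and 202 against 250 and 181, and Hmga2, a let-7 target, was between 1639 and 2252. Trim71 (LIN41), a let-7 target and translational repressor, was at 140 and 154 against 202 and 128. The V118M values again enclosed those of wild type, and the log2 fold change of 0.13 (standard error 0.27) was -0.20 without V118M replicate 1. In the LIN28 axis, a list of 8 further genes with let-7 processing enzymes and targets, 8 were tested, 4 were higher and 4 lower, and none passed adjusted or at an unadjusted p under 0.05 (limma).

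The NODAL-related members, which encode ligands, a co-receptor and feedback inhibitors of SMAD2 and SMAD3 signalling, were all listed somewhat higher on average in V118M where they were tested, and none passed. The ligand Nodal itself was listed at 0 in all libraries. Tdgf1 (Cripto), the NODAL co-receptor and an embryonic stem cell marker (chromosome 9, 110939603 to 110946158), was at 83 and 126 (wild type) and at 188 and 149 (V118M). The V118M libraries were the upper pair, at a mean of 168.5 ± 27.6 against 104.5 ± 30.4 (SD, n = 2 each). The difference was 0.71 on the log2 scale, standard error 0.28 (limma adjusted p = 0.951), and it was 0.41 without wild-type replicate 1 and 1.00 without wild-type replicate 2.

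Gdf3, a NODAL-like ligand, was at 20 and 36 against 36 and 50, so the groups met at 36 (log2 fold change 0.64, standard error 0.41). Lefty2, a secreted NODAL inhibitor, was at 8 and 17 against 16 and 30, and Lefty1, a close copy beside it on chromosome 1 with which reads may be shared, was at 19 and 17 against 16 and 22. The groups overlapped in both. The log2 fold change of Lefty2 was 0.85 (standard error 0.56), and it was 0.42 without V118M replicate 2 and 0.35 when wild-type replicate 1 was left out; that of Gdf3 was 0.23 without the latter. Without wild-type replicate 2 the values were 1.35 for Lefty2 and 1.049 for Gdf3. Among 12 NODAL receptors and effectors 11 were tested, 5 higher and 6 lower, and none had an unadjusted p under 0.05. The receptor gene Acvr2a was at 782 and 812 against 779 and 658. Acvr1c, also a receptor gene, was at 38 and 32 against 28 and 16, and the effector Smad3 at 844 and 828 against 797 and 581. In these 3 of the 11 both V118M values were below both wild-type values, beside 14.8% of all genes. In 0 of the 11 were both above, beside 13.2%. The effector Smad2 was between 602 and 630, and Foxh1, the DNA-binding partner of SMAD2 in the epiblast, was listed at 0 in all 4.

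Signalling and metabolic members included 4 that were tested. Tdh, the threonine dehydrogenase on which mouse embryonic stem cells depend (chromosome 14, 63492347 to 63509092), was at 171 and 138 (wild type) and at 182 and 222 (V118M). Its groups were separate by a small margin, at means of 154.5 ± 23.3 and 202 ± 28.3 (SD, n = 2 each). Its log2 fold change was 0.39 (standard error 0.22), and it was 0.23 without wild-type replicate 2 and 0.24 without V118M replicate 2. Fgf4, the autocrine ligand that drives exit from the naive state, was nearly level at 72, 70, 66 and 72 (log2 fold change -0.04, standard error 0.23). Fbxo15, an OCT4 and SOX2 target used as a reprogramming reporter, was at 97 and 124 against 102 and 166.

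Jam2, a junctional adhesion molecule, ran the other way, at 136 and 114 against 102 and 82. Both V118M values were below both wild-type values, with a log2 fold change of -0.44 (standard error 0.23) that was -0.29 without V118M replicate 2. The kinase co-activator gene Tcl1 and the RAS-like gene Eras were listed at 0 in all libraries. In the FGF pathway list, all 14 genes were tested, 11 were higher and 3 lower, and none had an unadjusted p under 0.05. Of all 19547 tested genes 9624 were higher and 9414 lower. The ERK feedback gene Dusp6, a standard readout of FGF signalling, was at 256 and 272 against 343 and 349 (limma adjusted p = 0.951). Dusp6, Spry4 and Etv4 were the 3 of the list with both V118M values above both wild-type values, beside 13.2% of all genes. The groups overlapped in Spry2 (568 and 646 against 628 and 692) and in Etv5 (1585 and 1477 against 1782 and 1380).

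Of the 7 primed members 3 could be tested. Pou3f1 (OCT6), a POU factor of the postimplantation epiblast (chromosome 4, 124656807 to 124660655), was at 8 and 4 in the wild-type libraries, at 13 in V118M replicate 1 and at 42 in V118M replicate 2. The groups were separate, but the V118M libraries were further from each other than the lower of them was from wild type. V118M was higher by 1.87 on the log2 scale, standard error 0.70 (limma adjusted p = 0.951), and 1.06 without V118M replicate 2. An antisense gene, Gm2164, overlaps its single exon, and no source used here says whether counting used strand. Genes on the opposite strand also overlap exons of Pou5f1, Tbx3, Tdh, Trim71, Sall4, Lin28a, Eras and Otx2, so reads of these pairs may be shared. Zic2, a zinc-finger factor of primed cells and neural tissue, was at 14 and 18 against 26 and 21 (log2 fold change 0.53, standard error 0.38). Fgf5, the classical primed marker, was at 4, 4, 4 and 5. Otx2, which directs the entry into the primed state, was listed at 0 in every library, as were Foxd3 and Sox3, and Cer1, a NODAL and BMP antagonist, was at 1 in V118M replicate 2 only.

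Markers of other tissues that share primed members were also measured. Above 0 in all libraries were 17209 of 22369 genes. Of 6 neural markers 4 were above 0 in all libraries, with summed values of 2342 to 2791. The fold changes of 4 of 4 tested were higher in V118M without passing, where those of 9624 of 19547 genes were higher. Only in Pax6, at 10 and 16 against 18 and 22, did the groups not overlap, where 13.2% of all genes were separate and higher. Of 12 endoderm markers 7 were above 0 in all libraries, while Foxa2 and Afp were listed at 0. Dab2 was the highest, at 3818 and 3964 against 3760 and 2756, and Gata6 was at 119 and 116 against 105 and 92. Among the 7 tested, Sox7 alone had an unadjusted limma p under 0.05, at 73 and 52 against 24 and 27, where 4.01% of all genes did. Both V118M values were below both wild-type values in 3 of the 7, Sox7, Dab2 and Gata6, beside 14.8% of all genes. In 0 of the 7 were both above, beside 13.2%. The part of other cell types in the primed values was not tested. A second list of 12 primed and early postimplantation genes had 9 tested, 7 higher and 2 lower. Among these 1, Eomes, a T-box factor of the primitive streak and trophoblast, had an unadjusted p under 0.05, at 20 and 26 against 51 and 42, and was higher by 0.99 on the log2 scale (limma adjusted p = 0.951). That is 1 of 9 beside 2.31% of all genes. The streak genes T, Wnt8a and Fgf8 were listed at 0 in all libraries.

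Single libraries moved these counts. V118M replicate 2 held the sole highest value in 13 of 28 tested members and the sole lowest in 7, where over all tested genes it was highest in 38.2% and lowest in 32.7%. V118M replicate 1 was highest in 9 (32.1% against 18.5% of genes). Wild-type replicate 1 was lowest in 10 (35.7% against 17.7% of genes). The count of members at an unadjusted p under 0.05 was 3 with all libraries. It was 0 when wild-type replicate 1 was left out and 2 when wild-type replicate 2 was, and leaving out V118M replicate 1 or 2 gave 3 or 1. A fit that leaves 1 library in a group takes the spread from the other group and assumes that the lone library varies alike. The members called differed between these fits: without V118M replicate 1 they were Sall4, Rif1 and Phc1, all lower, in a fit where 26.8% of all genes were under 0.05. Without V118M replicate 2 it was Rif1, higher, where 12.0% were. The median over members lay between 0.14 and 0.29 in these fits.

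The further naive genes, a list of 14 with KLF, TET and other factors, gave a like picture. Of these 13 were tested, 7 higher and 6 lower, and none had an unadjusted p under 0.05. Klf4, for which the protocol names a virus, was at 29444 in 3 libraries and 17589 in V118M replicate 2. Zfp296, a KLF4 partner, was at 77 and 76 against 110 and 103 (limma adjusted p = 0.951), and Klf2 was between 4 and 10 in all. In the LIF pathway 9 of 9 genes were tested, 4 higher and 5 lower, none under an unadjusted p of 0.05. The receptor gene Lifr was at 181 and 202 against 236 and 206, and the feedback gene Socs3 at 742 and 764 against 888 and 922. The effector Stat3 was at 3665 and 3922 against 3664 and 3402. Both V118M values were above both wild-type values in 3 of the 9, Lifr, Socs3 and Pim3, beside 13.2% of all genes. Both were below in 3, Lif, Jak1 and Stat3, beside 14.8%.

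**Figure D4:**
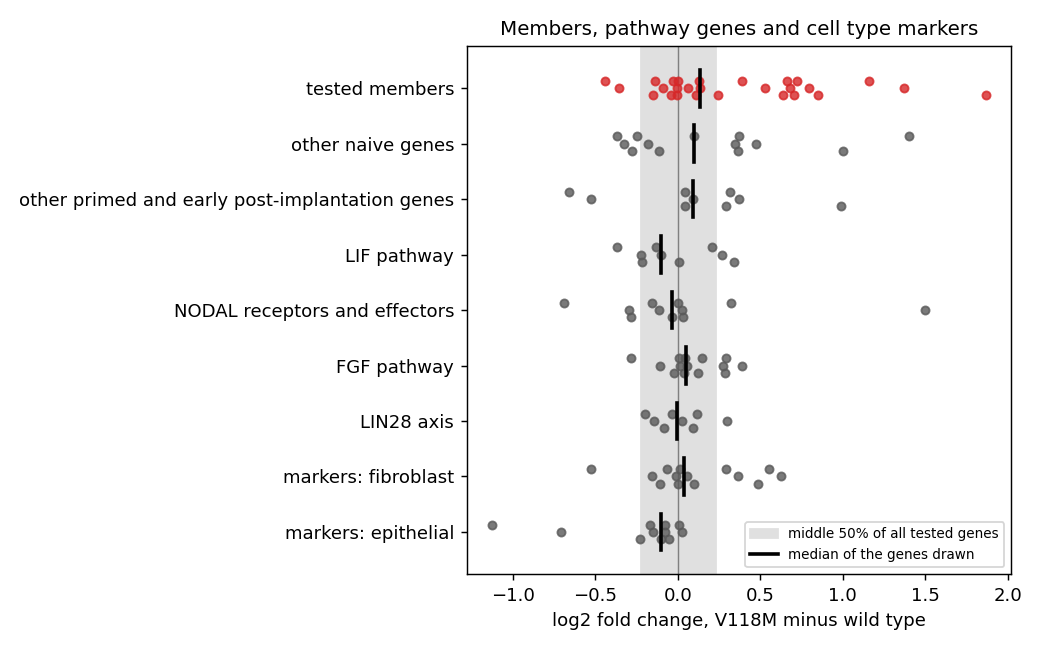
Log2 fold change of V118M over wild type for the tested members (red), for the genes of 6 related lists and for fibroblast and epithelial markers (grey points; black bars, medians of the genes drawn; grey band, middle 50% of all tested genes). Genes that one group lists at 0 throughout are not drawn; medians over all tested genes of these lists lie between -0.10 and 0.13.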

How the data were processed

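RNA was extracted with TRIzol and made into libraries with a TruSeq Nano RNA kit, per the labels' protocols. Tools named in the submitters' processing notes are RSEM, Bowtie2, DESeq2 and FastQC, with build mm10; versions and roles are not stated there. The authors deposited 1 whole-number score per gene and library; 76.7% of ranks held the same value in all 4 sorted columns, so these are normalized values and not raw reads, and how they were normalized is not stated in any source used here. Scores were transformed as log2(score + 1), so fold changes of low genes are understated. Genes at 1 or more in 2 or more libraries (19547) were fitted in limma 3.58.1 (R 4.3.3) on group alone, using its trend and robust options. All tests were two-sided, and p-values were adjusted (Benjamini-Hochberg) across the whole fit. The fit was tested on simulated data. Nothing says that replicates came from separate cultures; the p-values then reflect only the spread of these libraries, which may be technical.

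Positions, exonic lengths and overlaps came from GENCODE M21 (GRCm38, the same assembly as mm10); 22304 transcripts matched and 95.9% of these had their start within 1 base. Promoter windows came from RefSeq. The members and lists were chosen with earlier results of these data known. Described in full were the 8 members with the highest mean value, those at an unadjusted p under 0.05, the 6 highest and 6 lowest fold changes among tested members whose higher group mean was at least 10, and Nanog, Esrrb, Zfp42, Dppa3, Fgf5 and Otx2; other genes were chosen after their values were seen. Alternatives were pseudocounts of 0.1 and 5, no filter, a minimum of 10, a replicate block, limma without its trend and robust options, each library left out and, added after seeing the data, removal of a transcript-length trend.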

Additional observations from a re-analysis of the deposited data

How the results depend on the processing

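No member passed an adjusted p of 0.05 in any of the 11 alternatives, and over all genes 0 passed in 10 of them; with the replicate block 3 genes passed, none a member. Same-numbered libraries deviated together (correlation 0.30 across 12661 genes), but the labels give them only a number, so the block is not read as a pairing; with it 4 members had an unadjusted p under 0.05. That count was 3 in the reported fit, 2 with no filter and 2 without the trend and robust options (in both Pou3f1 was no longer under 0.05), 1 with the stricter filter, where Dppa2 was not tested and Pou3f1 was again not under 0.05, and 0 to 3 with single libraries left out. Members whose groups did not overlap numbered 7, and 10 to 23 with single libraries left out, where fewer libraries make separation easier (45.2% to 81.6% of all genes). The median log2 fold change of members was 0.13. It was 0 with no filter, which adds the members listed at 0, 0.18 with the length trend removed, and 0.14 to 0.29 with single libraries left out. Of 19 members whose fold change was followed, 9 changed sign in some alternative, each only with a library left out: Nanog (-0.36 to 1.81), Sall1 (-0.39 to 0.11), Fgf4 (-0.10 to 0.020), Nr0b1 (-0.83 to 0.53), Tbx3 (-0.43 to 0.36), L1td1 (-0.0031 to 0.22), Trim71 (-0.20 to 0.46), Rif1 (-0.10 to 0.084) and Phc1 (-0.48 to 0.31). The cause was not tested. Depth is unknown, so what the low values could show is not known either.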

Other observations

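The SOXB1 genes, which encode SOX1, SOX2 and SOX3 and are close in sequence in the DNA-binding domain, were far apart in value. Sox1, an early neural gene, was at 829 and 738 (wild type) and at 1024 and 731 (V118M), while Sox2 lay between 2 and 4 and Sox3 was listed at 0 in all libraries. The neural stem cell gene Nes was between 1306 and 1446, Pax6 between 10 and 22, and Neurog2 was listed at 0. These genes were chosen after their values were seen.

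Germ cell markers were measured as well. Of 8 such genes 7 were tested, 5 higher and 2 lower in V118M, and none passed over all genes. At an unadjusted p under 0.05 there were 2, Sycp3 and Asz1, which encode meiotic and germline proteins, beside 2.31% of all genes. Sycp3 was at 26 and 69 in V118M and listed at 0 in wild type (limma adjusted p = 0.384), and it passed the filter only through the V118M libraries. Asz1 was at 32 and 55 against 129 and 156 (log2 fold change 1.73, limma adjusted p = 0.816). Dazl was at 40 and 0 against 8 and 69, with the spread inside each group larger than the difference between them. Nanos3 was listed at 0 throughout.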
